A study of Sus scrofa with 15 samples.

Results

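The GTPases of immunity-associated proteins (GIMAP) are a family of GTP-binding proteins encoded side by side in 1 gene cluster in mammals. The 7 members described here, GIMAP1, GIMAP2, GIMAP4, GIMAP5, GIMAP6, GIMAP7 and GIMAP8, are the rows of the porcine gene count table with these symbols, 7 of 29886 rows in all, and each of the 7 was also among the 10939 genes with enough counts to be tested. Expression was compared between natural killer (NK) cells from blood and from liver. From each of 5 pigs, 6 months of age, CD3- CD172a- cells were sorted into CD8α high cells of the blood, CD8α high cells of the liver, which the labels call conventional, and CD8α dim cells of the liver, labelled resident (lrNK), which gave 15 bulk libraries with 5 per population. The liver cells came from a flush of the portal vein, and the 2 liver populations were separated from each other by their CD8α staining alone.

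Proteins of this family carry a GTP-binding domain and mostly sit on intracellular membranes, such as those of the lysosome, the endoplasmic reticulum, the Golgi apparatus and lipid droplets. They are expressed mainly in lymphocytes, B and T cells as well as NK cells, and are best known for their part in lymphocyte survival: loss of GIMAP5 in rats and mice leads to a shortage of T cells, and in mice also of NK cells. GIMAP4 has been linked to the timing of T cell death and to cytokine secretion, GIMAP6 to autophagy, GIMAP1 to the survival of mature T and B cells, and GIMAP2 and GIMAP7 to lipid droplets.

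Libraries held 2003499 to 5680221 counts, with a median of 2407859 in lrNK cells, 3749615 in blood NK cells and 3877028 in CD8α high liver NK cells. Levels are CPM, counts scaled by the library total and a TMM factor that adjusts for its composition,, and because reads came from the 3′ ends of transcripts they were not divided by gene length. NK cell markers summed over 16 genes to 7236 to 15192 CPM in a library, but single markers differed between populations. Of the 16, 11 were called between lrNK and blood NK cells, 7 higher and 4 lower in lrNK cells. Against CD8α high liver 9 were called, 6 higher and 3 lower, and between the CD8α high populations none was. In lrNK cells IL2RB had a mean of 3029 CPM and CD8A of 43.4 CPM. T cell markers summed to 646 to 1266 CPM in blood, 719 to 1103 in CD8α high liver and 117 to 595 in lrNK libraries, with CD4, CD5 and CD28 at 0 in all 15. CD3G had the highest mean of the 4 tested T cell markers in each population, at 865, 825 and 289 CPM in that order. It was the 1 called T cell marker, lower in lrNK cells (adjusted p = 0.00216 against blood and 0.00374 against CD8α high liver, by edgeR). With pig as a block, CD3E was also lower than in CD8α high liver (adjusted p = 0.0418 by edgeR). B cell markers stood apart: they summed to 25.2 to 194 CPM in blood, 5.73 to 72.9 in CD8α high liver and 515 to 1262 in lrNK libraries, and 9 of the 9 that could be tested were higher in lrNK cells in both comparisons, although CD79A was at 0 in all 15 libraries. Monocyte, endothelial and hepatocyte markers summed to at most 25.6, 23.9 and 9.74 CPM in any library. LYZ, the 1 testable monocyte marker, was higher in lrNK than in CD8α high liver NK cells (8.56 and 0.365 CPM, adjusted p = 0.0272, and 0.0512 with pig as a block, by edgeR). Platelet and erythroid markers summed to 76.4 to 398 CPM across the 15 libraries, without a called gene. The 398 CPM was in the blood library of pig 4, and the next highest sum was 178 CPM, in the lrNK library of pig 3.

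The family was expressed in all 3 populations, with a wide range between members. GIMAP1 was the most abundant, at rank 86 of the 10939 tested genes by mean CPM over the 15 libraries, followed on the same scale by GIMAP6, GIMAP7, GIMAP4, GIMAP5 and GIMAP8, although in lrNK cells the mean of GIMAP4 (537 CPM) was above that of GIMAP7 (505 CPM) and in blood NK cells that of GIMAP5 (194 CPM) was above that of GIMAP4 (169 CPM), and GIMAP2 was low, with 8 to 57 counts per library. Summed over the 7 members, the level was 2648 ± 303 CPM (SD, n = 5) in blood NK cells, 2909 ± 316 CPM in the CD8α high liver population and 3289 ± 624 CPM in that of lrNK cells. The sums overlapped, since the lrNK libraries ran from 2433 to 3933 CPM and those of blood from 2122 to 2878 CPM. In bulk RNA, a different number of expressing cells and a different amount of RNA per cell cannot be told apart.

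**Figure D1:**
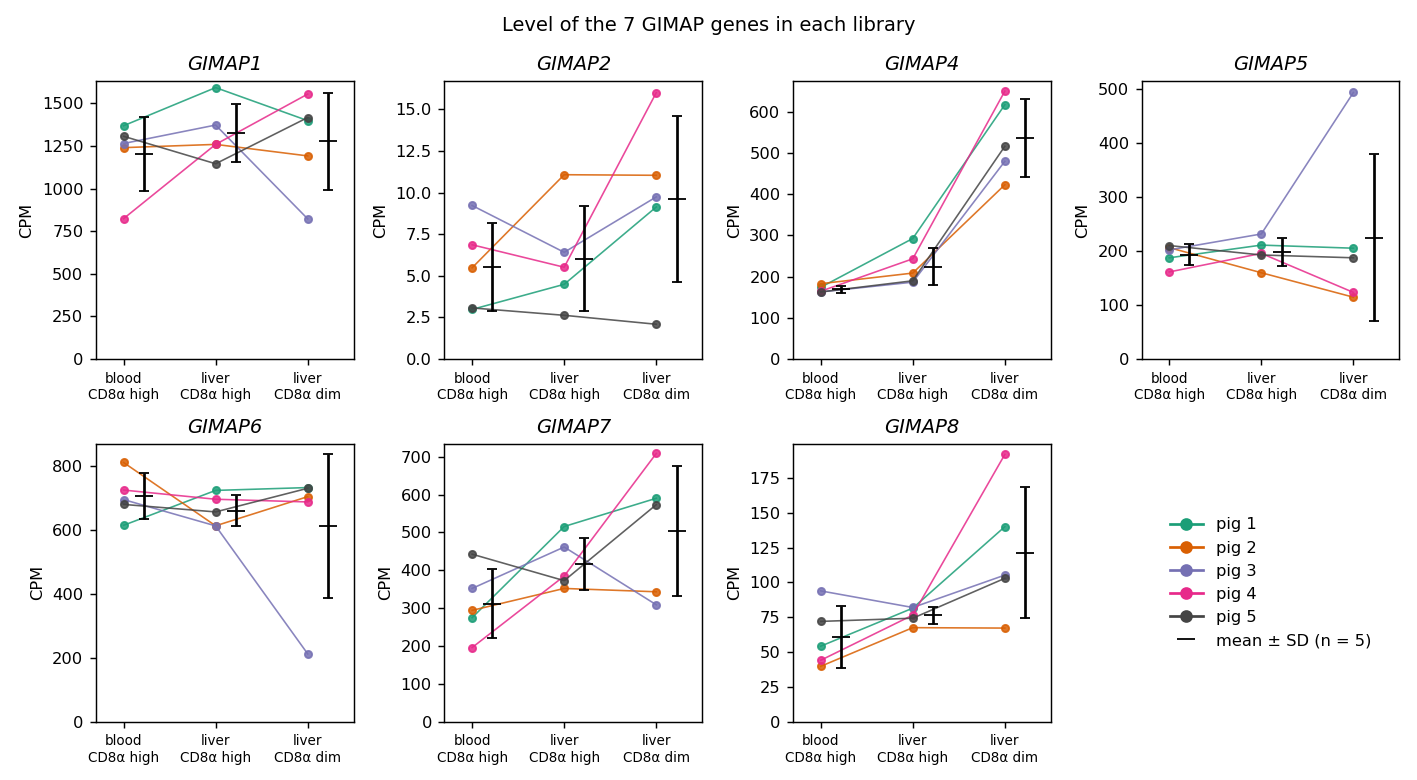
Level of each GIMAP gene (y axis, CPM, linear and from 0, with its own range in each panel) in the 5 libraries of each population, with points of the same pig joined by a line and black bars for the mean ± SD. GIMAP4 is the member whose 5 lrNK libraries lie above all 10 others, while GIMAP5 and GIMAP6 each have 1 lrNK library far from the other 4.

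Between lrNK and blood NK cells, 3 of the 7 members rose in lrNK cells (GIMAP4, GIMAP8 and GIMAP7) and none fell, where 18.2% of all tested genes were called, 8.62% as higher and 9.6% as lower. The median log2 fold change was 0.70 over the 7 members and 0.0060 over all tested genes, and 6 of the 7 members had a fold change above 0, against 50.4% of all tested genes.

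GIMAP4 changed most. Its level in pigs 1 to 5 was 174, 183, 163, 164 and 163 CPM in blood NK cells. In CD8α high liver NK cells the same pigs had 292, 209, 187, 243 and 189.9 CPM. In lrNK cells they had 617, 423, 479.8, 650.1 and 516 CPM. The lowest lrNK library was thus above the highest of either other population, and a lack of overlap in either direction was seen in 13.5% of all tested genes against blood and in 11.9% against CD8α high liver. GIMAP4 was 3.17-fold higher in lrNK than in blood NK cells, a log2 fold change of 1.67 (SE 0.16, 95% interval 1.33 to 2.00, adjusted p = 1.73e-07 by the quasi-likelihood test of edgeR, Benjamini-Hochberg adjusted over 10939 genes), and higher in 5 of 5 pigs. By p-value it was at rank 75 of 10939 genes, but by size only at rank 361 of the 943 genes that were called higher.

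GIMAP8, a member of unusual length with several GTP-binding domains, had 54.2, 39.7, 93.9, 44.1 and 72.0 CPM in the blood NK cells of pigs 1 to 5. The CD8α high liver NK cells had 81.5, 67.5, 82.0, 76.5 and 74.3 CPM, and the lrNK cells 140.0, 67.2, 105, 192 and 103 CPM. Here the ranges of lrNK and blood overlapped, but the lrNK library was the higher one in 5 of 5 pigs. The gene was 2.00-fold higher in lrNK than in blood NK cells (log2 fold change 1.00, SE 0.26, 95% interval 0.47 to 1.53, adjusted p = 0.00827 by edgeR). Without pig 4 the log2 fold change was 0.68 (adjusted p = 0.103), and without pig 1 it was 0.91 (adjusted p = 0.0554, both by edgeR), so the call needed each of these animals.

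GIMAP7, which forms homodimers and stimulates the GTPase activity of other family members, had 275, 294, 352, 196 and 443 CPM in blood NK cells of pigs 1 to 5. Its CD8α high liver values were 516, 352, 461, 385 and 373 CPM, and its lrNK values 590.2, 343, 309, 709 and 573 CPM. The lrNK libraries of pigs 2 and 3 lay inside the blood range, and 4 of 5 pigs had the higher level in lrNK cells. The gene was 1.62-fold higher in lrNK than in blood NK cells (log2 fold change 0.70, SE 0.23, 95% interval 0.22 to 1.17, adjusted p = 0.0373 by edgeR). That call was the weakest of the 3: the log2 fold change was 0.60 (adjusted p = 0.157) without pig 1, 0.79 (adjusted p = 0.0520) without pig 2 and 0.41 (adjusted p = 0.269) without pig 4, and the adjusted p was 0.0791 when only the 2 populations compared were fitted, all by edgeR.

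B cell markers, like these 3 genes, were highest in lrNK cells, but from blood to CD8α high liver their sum was lower at the median (92.1 and 32.6 CPM) while the means of the 3 genes were higher. In lrNK cells of pigs 1 to 5 the B cell markers summed to 604, 1246, 714, 1262 and 515 CPM. Pig 4, with the highest B cell marker sum, also had the highest lrNK levels of GIMAP4, GIMAP7 and GIMAP8. Pig 2, with a sum close to that, had the lowest GIMAP4 and GIMAP8 levels of the 5. The part of B cell transcripts in the higher GIMAP4, GIMAP7 and GIMAP8 levels was not tested. The sort stained for CD3, CD172a and CD8α, and for no B cell marker.

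The other 4 members did not pass the test between lrNK and blood NK cells. GIMAP1 had 1369, 1240.3, 1265, 824 and 1307 CPM in blood, 1593, 1259, 1373, 1259 and 1146 CPM in CD8α high liver, and 1399, 1192, 822, 1555 and 1417 CPM in lrNK cells of pigs 1 to 5. The 3 ranges overlapped, and the log2 fold change between lrNK and blood was 0.089 (SE 0.17, 95% interval -0.27 to 0.45, adjusted p = 0.788 by edgeR). For the most abundant member, the interval thus left room for changes of at most 1.36-fold up and down to 0.829-fold.

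GIMAP6 had 615, 812, 696, 725 and 680.3 CPM in blood and 724, 613, 613, 696 and 657 CPM in CD8α high liver NK cells. Its lrNK values were 733, 705, 212, 688 and 731 CPM. In pigs 1, 2, 4 and 5 the lrNK level lay within the range of blood, and pig 3 was far below every other library. The log2 fold change between lrNK and blood was -0.20 (SE 0.23, 95% interval -0.67 to 0.27, adjusted p = 0.616 by edgeR), and 0.034 (adjusted p = 0.891) without that 1 library.

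GIMAP5, the member whose loss depletes lymphocytes in rodents, had 188, 207, 202, 162 and 211 CPM in blood NK cells and 211, 160.1, 232, 196 and 193 CPM in CD8α high liver NK cells. In lrNK cells it had 206, 115, 494, 124 and 188 CPM. Here again pig 3 stood alone, this time above every other library, while pigs 2 and 4 were below all blood libraries. The log2 fold change between lrNK and blood was 0.21 (SE 0.28, 95% interval -0.37 to 0.80, adjusted p = 0.679 by edgeR), and -0.28 (adjusted p = 0.308) without the lrNK library of pig 3. The sign of the GIMAP5 difference therefore rested on 1 library, and on neither side did it pass the test.

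GIMAP2 had 2.98, 5.48, 9.23, 6.87 and 3.07 CPM in blood, 4.49, 11.1, 6.41, 5.52 and 2.63 CPM in CD8α high liver and 9.14, 11.0, 9.74, 16.0 and 2.09 CPM in lrNK cells. The ranges overlapped, and the log2 fold change of 0.79 between lrNK and blood had a wide 95% interval, from -0.41 to 1.99 (SE 0.58, adjusted p = 0.400 by edgeR). These counts thus set no narrow limit on a difference of GIMAP2 in either direction.

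**Figure D2:**
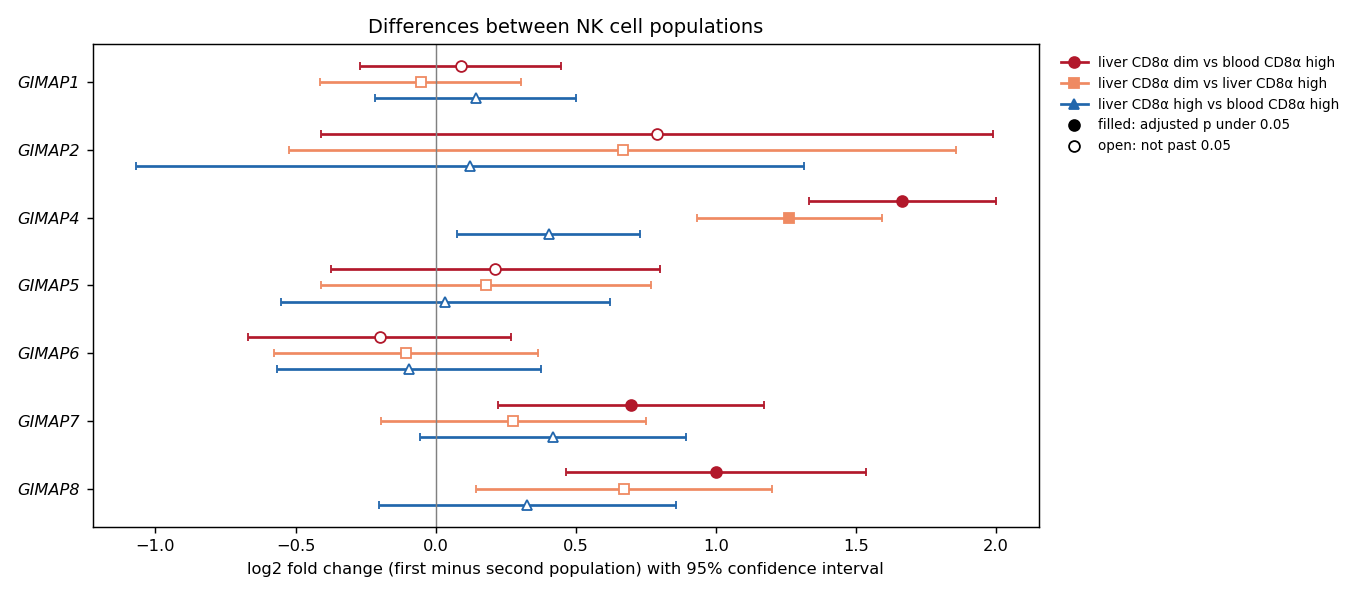
Log2 fold change of each GIMAP gene in the 3 comparisons with its 95% interval, filled points for an adjusted p under 0.05 by edgeR. GIMAP4 is called in both lrNK comparisons, at 1.67 and 1.26, GIMAP7 and GIMAP8 against blood at 0.70 and 1.00, and no member between the CD8α high populations.

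Between lrNK and CD8α high liver NK cells, which share the organ, 1 member rose in lrNK cells and none fell, where 14.6% of all tested genes were called, 6.96% as higher and 7.68% as lower. That member was GIMAP4, 2.40-fold higher in lrNK cells (log2 fold change 1.26, SE 0.16, 95% interval 0.93 to 1.59, adjusted p = 7.33e-06 by edgeR) and higher in 5 of 5 pigs. GIMAP8 had a log2 fold change of 0.67 (SE 0.25, 95% interval 0.14 to 1.20, adjusted p = 0.0875) and GIMAP7 of 0.28 (SE 0.23, adjusted p = 0.510), both by edgeR. Single pigs moved both values: leaving out each in turn gave 0.44 to 0.78 for GIMAP8 and 0.095 to 0.45 for GIMAP7, the lowest of each without pig 4, and neither passed the test. The other 4 members had log2 fold changes of -0.11 to 0.67, with adjusted p-values of 0.530 to 0.898 by edgeR. The 0.67 was that of GIMAP2, which ran from 0.36 without pig 4 to 0.95 without pig 2. The median was 0.28 over the 7 members and 0.016 over all tested genes. Both lrNK comparisons use the same lrNK libraries, so they are not independent of each other.

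Between the CD8α high NK cells of liver and blood, no member was called, and 0.064% of all tested genes were, 0.0457% as higher and 0.0183% as lower in liver (7 of 10939 by edgeR, with 549 at an unadjusted p under 0.05, and 22 by DESeq2, none of them a GIMAP gene). GIMAP4 came nearest, with a log2 fold change of 0.40 (SE 0.16, 95% interval 0.077 to 0.73, unadjusted p = 0.0179, adjusted p = 0.816 by edgeR), as the 1 member with an unadjusted p under 0.05. It was higher in liver in 5 of 5 pigs, and the lowest liver level, 187 CPM, was just above the highest blood level, 183 CPM, where 2.01% of all tested genes had no overlap in either direction. By mean level GIMAP4 was thus ordered as blood (169 ± 8.85 CPM), CD8α high liver (224 ± 44.3 CPM) and lrNK (537 ± 94.8 CPM, SD, n = 5 each), where the first step did not pass the test over all genes. For GIMAP7 and GIMAP8 the means had the same order, with log2 fold changes of 0.42 and 0.33 between the CD8α high populations that did not pass the test (adjusted p = 0.9996 for each by edgeR). Leaving out each pig in turn gave 0.30 to 0.63 for GIMAP7 (0.63 without pig 5). For GIMAP8 it gave 0.23 to 0.51 (0.51 without pig 3), and neither gene passed.

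**Figure D3:**
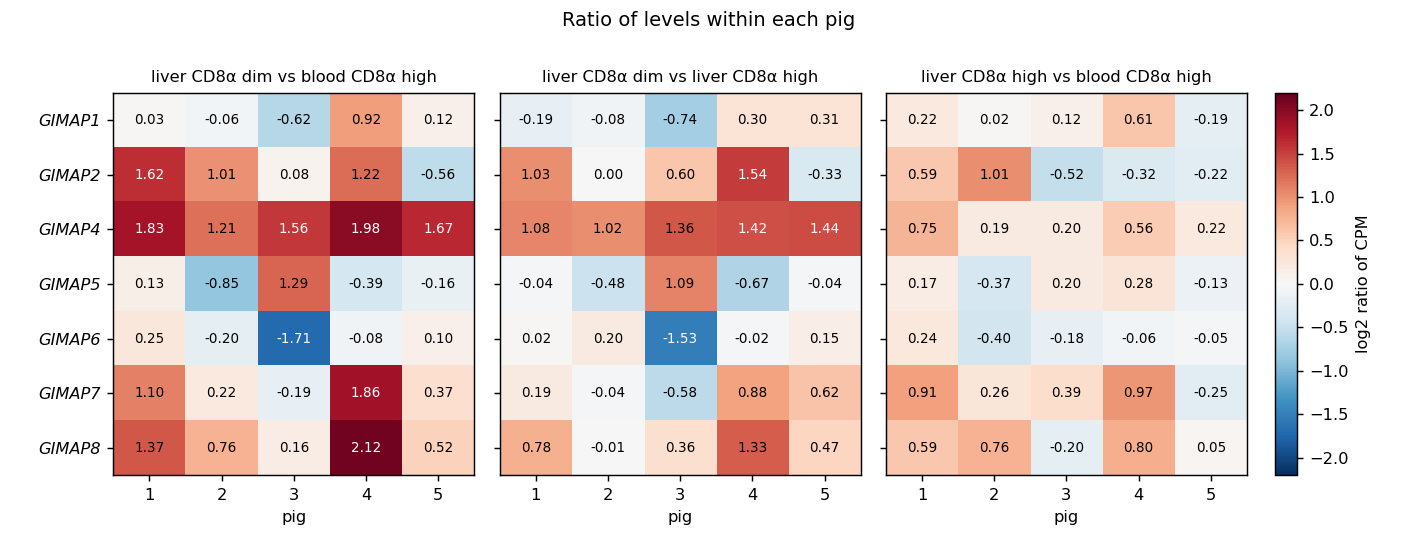
Log2 ratio of CPM within each pig (columns) for each GIMAP gene (rows), in the 3 comparisons, red for higher and blue for lower in the population named first. GIMAP4 is above 0 in every pig and comparison, pig 4 has the largest lrNK to blood ratios of GIMAP4, GIMAP7 and GIMAP8, and pig 3 has opposite ratios for GIMAP5 and GIMAP6.

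The makeup of the family shifted with these differences. GIMAP4 took 6.47% ± 0.82 of all GIMAP counts in blood NK cells, 7.67% ± 0.939 in CD8α high liver NK cells and 16.5% ± 2.05 in lrNK cells (SD, n = 5 each). The lrNK libraries held 14.6% to 19.7%, all above the 5.65% to 8.55% of the other 10 libraries. For each GIMAP1 count there were 0.355 to 0.584 GIMAP4 counts in lrNK cells and 0.125 to 0.200 in the others, a ratio that does not depend on the scaling between libraries. The mean share of GIMAP6 was 27.0% in blood, 22.8% in CD8α high liver and 18.3% in lrNK cells, and that of GIMAP1 was 45.1%, 45.5% and 38.6%. Since shares add up to the whole, these lower shares accompany the higher share of GIMAP4 and are no evidence of a lower level.

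**Figure D4:**
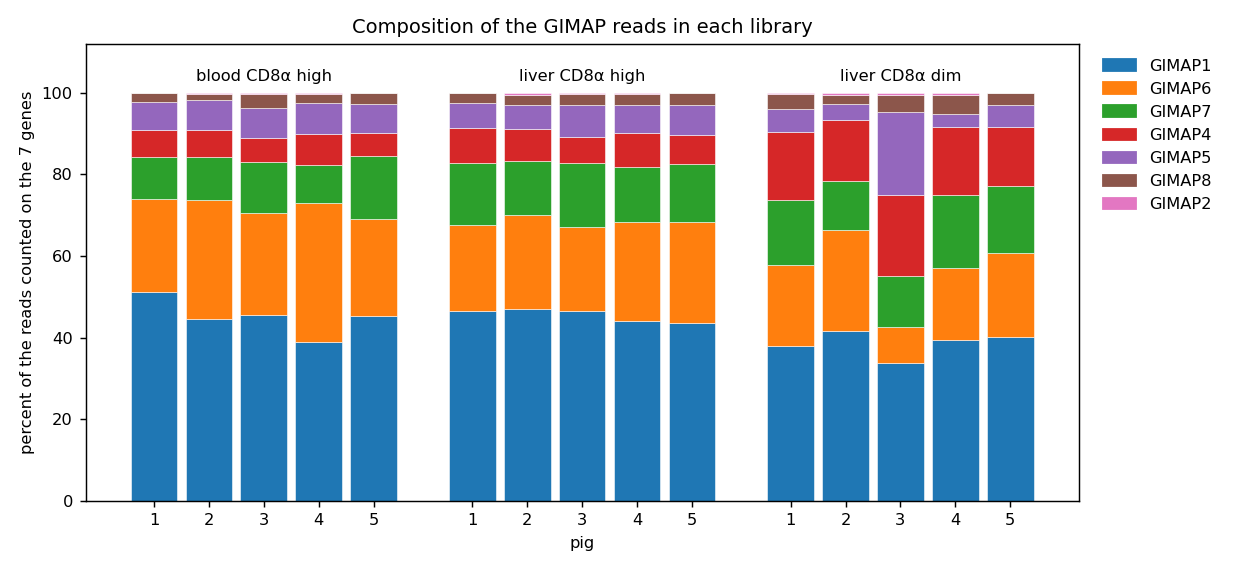
Share of each GIMAP gene in the summed GIMAP counts of each of the 15 libraries (stacked bars, percent, by population and pig). The GIMAP4 segment is 14.6% to 19.7% in the lrNK libraries, and in the lrNK library of pig 3 the GIMAP5 segment reaches 20.3% while GIMAP6 shrinks to 8.73%.

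The lrNK library of pig 3 differed from the others in GIMAP5 and GIMAP6. There were 2.33 GIMAP5 counts for each GIMAP6 count in that library and 0.163 to 0.378 in the other 14. GIMAP1 (822 CPM) and GIMAP7 (309 CPM) were also lowest there among the lrNK libraries, while its GIMAP4 level of 479.8 CPM was inside the range of the other lrNK libraries. The 3 calls between lrNK and blood NK cells remained for GIMAP4, GIMAP7 and GIMAP8 when this library was left out, with GIMAP7 at a log2 fold change of 0.84 in place of 0.70.

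In the RefSeq annotation of the pig genome Sscrofa11.1, the 7 genes lie within 131955 bases of chromosome 18, from 6363443 to 6495397, in the order GIMAP5, GIMAP1, GIMAP2, GIMAP6, GIMAP4, GIMAP7 and GIMAP8. GIMAP5 (6363443 to 6371725) is annotated there as a long non-coding RNA and the others as protein coding. The 3 genes that rose, GIMAP4 (6429886 to 6452963), GIMAP7 (6447205 to 6452975) and GIMAP8 (6481080 to 6495397), are the last 3 members in this order. GIMAP6 (6414771 to 6420765), GIMAP2 (6395809 to 6401076) and GIMAP1 (6372854 to 6387060) lie on the GIMAP5 side of them.

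The annotated spans of GIMAP4 and GIMAP7 overlap by 5759 bases, 99.8% of GIMAP7 and 25.0% of GIMAP4, so the split of reads between them is uncertain. The GIMAP7 count was above the GIMAP4 count in 12 of 15 libraries, all 10 CD8α high libraries and 2 of 5 lrNK libraries, so not every GIMAP7 read can have been counted for GIMAP4 too. Summed as a single feature, the pair was higher in lrNK cells than in blood by a log2 fold change of 1.12 (SE 0.18, adjusted p = 1.25e-04) and than in CD8α high liver by 0.70 (SE 0.18, adjusted p = 0.00969, both by edgeR). The sum does not depend on how reads were divided if each was counted once, which is not known here. Another overlapping pair nearby, ASIC3 and ABCB8, had equal counts in 11 of 15 libraries and differed by at most 9 counts in the others. GIMAP8 shares 647 bases (4.52% of its span) with LOC110257569, which had at most 1 count in a library.

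Within 250 kb on either side, 10 of 23 other annotated genes could be tested, and 3 were called between lrNK and blood NK cells and between lrNK and CD8α high liver NK cells, with none between the CD8α high populations. AGAP3, a GTPase-activating protein for ARF GTPases, fell from 70.3 CPM in blood to 22.5 CPM in lrNK cells (difference -1.66 on the log2 scale, SE 0.30, adjusted p = 3.82e-04 by edgeR). TMEM176B, a membrane protein of myeloid and lymphoid cells and the nearest of the 3 to the cluster, rose from 0.542 to 10.7 CPM (adjusted p = 0.0220 by edgeR), with at most 54 counts in a library. LOC100519808 fell from 5.75 to 0.096 CPM (adjusted p = 3.31e-04 by edgeR), with at most 40 counts. Inside the cluster, the unnamed protein-coding gene LOC100519177 lies between GIMAP7 and GIMAP8 and had 32.3 CPM in blood, 25.0 in CD8α high liver and 30.3 in lrNK cells (log2 fold change -0.095 between lrNK and blood, adjusted p = 0.897 by edgeR). The long non-coding RNA LOC106508193, also between them, had at most 29 counts in a library (log2 fold change -1.05, SE 1.23, adjusted p = 0.629 by edgeR). The called neighbouring genes thus moved in both directions around members that rose or did not pass the test.

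**Figure D5:**
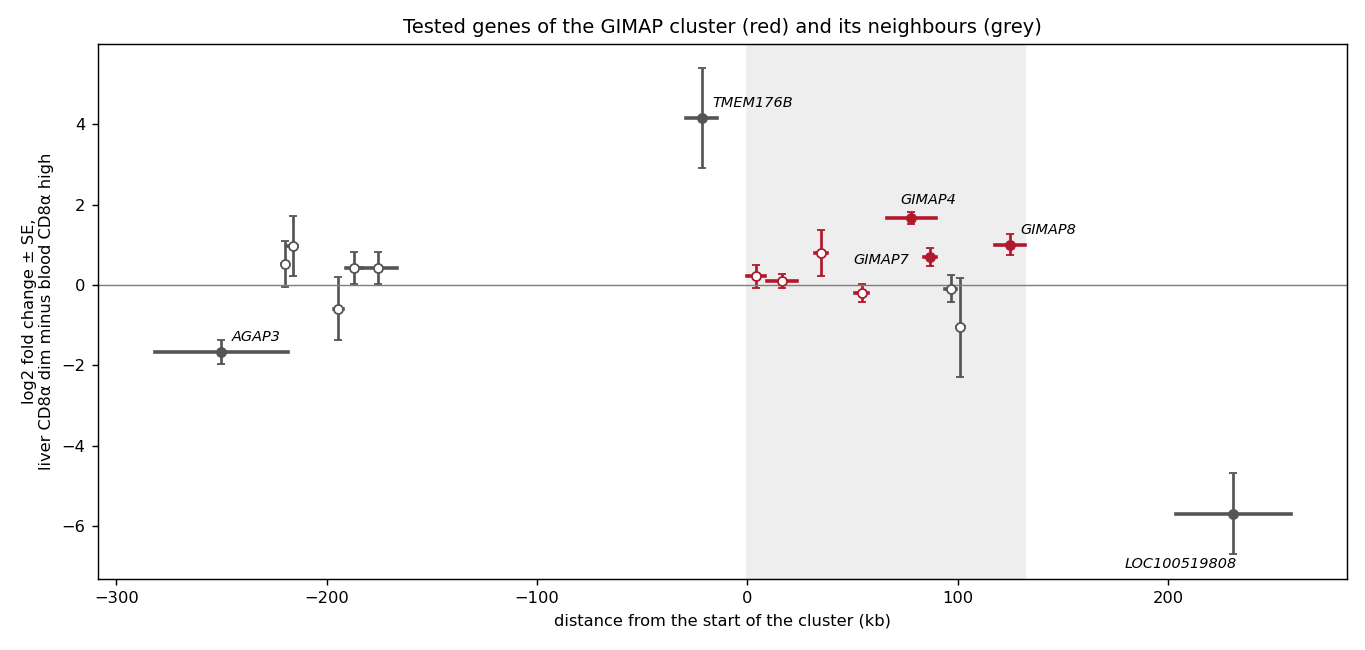
Log2 fold change ± SE between lrNK and blood NK cells (y axis) against the distance from the start of the GIMAP cluster in kb (x axis), GIMAP genes in red, other tested genes in grey, filled points for an adjusted p under 0.05 by edgeR, horizontal bars for gene spans. GIMAP4, GIMAP7 and GIMAP8 lie toward 1 end of the shaded cluster, with LOC100519177 and LOC106508193, not called, between GIMAP7 and GIMAP8. Outside the cluster, TMEM176B is above 0 and AGAP3 and LOC100519808 are below 0.

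GIMAP proteins have been linked to survival through the BCL2 family, the GABARAP autophagy proteins and the GSK3 and mTOR kinases. Most of these genes did not pass the test, and those that did went in both directions. Between lrNK and blood, MTOR had a log2 fold change of 0.0024 (adjusted p = 0.997) and GSK3B of -0.13 (adjusted p = 0.597, both by edgeR). Of 18 such genes, all tested, 2 rose and 3 fell between blood and lrNK cells, with a median log2 fold change of 0.079. MCL1, an anti-apoptotic protein on which NK cells depend, rose from 321 ± 58.2 to 673 ± 112 CPM (difference 1.07 on the log2 scale, adjusted p = 5.01e-05), and BCL2L11, which encodes the pro-apoptotic protein BIM, fell from 342 ± 65.2 to 183 ± 90.6 CPM (difference -0.91 on the log2 scale, adjusted p = 0.0135, both by edgeR with SD and n = 5). GABARAP rose by a log2 fold change of 0.49 (adjusted p = 0.0436, and 0.0601 with pig as a block), while its relative GABARAPL1 had a log2 fold change of -1.09 (adjusted p = 0.0268) and the kinase AKT1 of -0.48 (adjusted p = 0.0447, and 0.0538 with pig as a block), all by edgeR. Between lrNK and CD8α high liver NK cells MCL1 and GABARAP rose and BCL2L11 fell, and between the CD8α high populations none of the 18 was called. With pig as a block, GABARAPL1 also passed against CD8α high liver (adjusted p = 0.0117) and GABARAP did not (adjusted p = 0.0539, both by edgeR).

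Among genes of quiescent or naive lymphocytes, a state in which GIMAP genes are typically high in T cells, those called went in both directions as well. Of 19 listed genes, 17 were tested, and 2 rose and 3 fell between blood and lrNK cells, with a median log2 fold change of -0.21. SATB1, a chromatin organiser, rose from 246 ± 22.8 to 559 ± 112 CPM (adjusted p = 3.89e-05) and the transcription factor FOXO1 by a log2 fold change of 0.69 (adjusted p = 0.0208, both by edgeR with SD and n = 5). KLF2, which controls lymphocyte egress, had a log2 fold change of -3.12 (adjusted p = 4.93e-04), KLF3 of -2.68 (adjusted p = 8.17e-06) and FOXO3 of -0.72 (adjusted p = 0.00365), all falls that passed by edgeR. Against CD8α high liver 2 rose and 4 fell, with a median of 0.24, and between the CD8α high populations none was called.

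Other GTPase families of lymphocytes were read from a list of 28 genes. Of these, 19 had a row in the table and 14 were tested, of which 4 rose and 2 fell between blood and lrNK cells, with a median log2 fold change of -0.28. MX1, an interferon-induced antiviral GTPase, rose from 13.2 ± 8.82 to 198 ± 194 CPM (adjusted p = 1.44e-04 by edgeR, SD, n = 5). The related small GTPases RAP1A and RAP1B, which act in integrin activation, moved in opposite directions, RAP1A up by a log2 fold change of 0.88 (adjusted p = 0.00341) and RAP1B down (log2 fold change -1.53, adjusted p = 6.58e-08, both by edgeR). GTPBP1 and RHOH rose by less than RAP1A (adjusted p = 0.0402 and 0.0499, and for GTPBP1 0.0560 with pig as a block, by edgeR). Against CD8α high liver 2 rose and 2 fell, and between the CD8α high populations none was called. With pig as a block, RAC2 also passed as lower against blood (adjusted p = 0.0419, and 0.0817 without the block) and GBP1 as lower against CD8α high liver (adjusted p = 0.0317, and 0.0585 without the block), both by edgeR.

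Within populations some members varied together and others did not. Of the 21 pairs of members, 12 had a Pearson r above 0 over the 15 libraries, and after each population's mean was subtracted 13 did, with a median r of 0.070. In that second set every pair among GIMAP1, GIMAP4, GIMAP6, GIMAP7 and GIMAP8 was above 0, from 0.031 for GIMAP6 and GIMAP8 to 0.851 for GIMAP1 and GIMAP7, and every pair below 0 involved GIMAP2 or GIMAP5. The lowest was GIMAP5 with GIMAP6 (-0.811), the genes in which the lrNK library of pig 3 stood apart. The genes outside the family with levels most like the mean of the 7 members, each standardised, were PPIG (r = 0.907), CHST2 (0.867), MCTP1 (0.862), MRPS16 (0.857) and ATAD5 (0.848), over 15 libraries that share populations and pigs. After each population's mean was subtracted, the nearest were EXOSC6 (0.882), NCAPG (0.881), MBIP (0.870), PPIG (0.860) and PCBD1 (0.853), so that PPIG, a cyclophilin of the splicing machinery, was in both sets. With no mean subtracted, GIMAP4 alone, singled out after its values were seen, was most like SRI (0.971), the gene of the calcium-binding protein sorcin, and WNT5B (0.970), a secreted WNT ligand. Next came SDC1 (0.966), with mean levels of 0, 1.21 and 29.7 CPM in blood, CD8α high liver and lrNK cells. After each population's mean was subtracted, GIMAP4 was most like SIN3B (0.854) and ENPP4 (0.838). WNT5B was then at rank 5 (0.792) and SRI was not among the first 5.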

How the data were processed

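RNA of 15 libraries (3 sorted NK cell populations of 5 pigs) was sequenced from the 3′ ends of transcripts with QuantSeq. Per the labels and the study's methods, the authors trimmed the reads, aligned them with HISAT2 to the pig genome Sscrofa11.1 and deposited raw gene counts, whole numbers with no normalization. How reads were assigned to genes (the tool, use of strand, treatment of overlaps) is not given in the sources used here. All 15 columns matched a sample, and the labels pair the populations of each pig.

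Counts were filtered with filterByExpr, scaled by TMM and tested with the quasi-likelihood test of edgeR 4.0.16 (R 4.3.3) on all 3 populations together, without a term for the pig. P-values were adjusted over 10939 genes by the Benjamini-Hochberg method, and genes with an adjusted p under 0.05 were called. CPM use the TMM-scaled library sizes of the same fit, and coefficients of correlation use log2(CPM + 1). After each population's mean was subtracted, libraries of the same pig had a mean r of 0.112 over 15 pairs, from -0.0231 to 0.202. Over 60 pairs of different pigs the mean r was -0.0279, from -0.212 to 0.201. Deviations within a population add up to 0, so these 2 means are not independent of each other. A fit with pig as a block was run as an alternative. Others were DESeq2 1.42.0 and its size factors, other count filters (at least 1 count, or a mean of at least 20), robust dispersion, only the 2 populations compared, and leaving out each pig. On simulated counts of lrNK against blood NK cells with 200 of 10939 genes changed, edgeR recovered 112, among them 74 of 100 changed 4-fold, with 1 false call, the fit with pig as a block recovered 103 with 2 false calls, and DESeq2 122 with 16. The simulated counts held no effect of the pig, so they cannot compare the fits with and without the block.

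Gene positions are from the RefSeq table of Sscrofa11.1, in which 29862 row names were found. It holds no strands and no gene descriptions, so unnamed genes in the cluster could not be assigned to the family, and sequences were not used here. Named were the 7 members, tested neighbours within 250 kb that were called, up to 4 genes per list and comparison with the smallest adjusted p (others named after their values were seen), and the 5 genes most like the family mean. The members and the gene lists were chosen with earlier results of these data known. The values of 1 gene of the list of other GTPases are not reported here.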

Additional observations from a re-analysis of the deposited data

Results flagged for a closer look

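Dixon's test of the highest and lowest library was run on the CPM of the 7 members in the 3 populations, 21 groups of 5 libraries, and 3 groups held a library far from its other 4. Chance flags about 1 in 20 such groups. In blood NK cells, GIMAP1 was low in pig 4 at 824 CPM. In lrNK cells, GIMAP5 was high at 494 CPM and GIMAP6 low at 212 CPM, both in pig 3. No cause of these 3 values was tested.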

How the results depend on the processing

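With pig as a block, 3, 1 and 0 members were called for lrNK against blood, lrNK against CD8α high liver and CD8α high liver against blood, as without the block, and the block changed no call of a GIMAP gene. GIMAP4 kept its call in both lrNK comparisons under every alternative, with log2 fold changes of 1.58 to 1.77 and 1.21 to 1.32 when a pig was left out. Leaving out a pig gave 1 to 3 called members against blood (1 without pig 1 or pig 4), 1 against CD8α high liver and 0 between the CD8α high populations, and fitting only the 2 populations compared gave 2 against blood. Over all genes, leaving out a pig gave 1051 to 1453 calls against CD8α high liver (1051 without pig 5, and 1764 without the lrNK library of pig 3 alone) and 0 to 8 between the CD8α high populations. There, in place of 7 calls, DESeq2 gave 22, a minimum of 1 count 18, only the 2 populations 16, robust dispersion 4, leaving out the lrNK library of pig 3 gave 12, and doing so with the pig block 19. The causes were not tested.

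The sign of members that did not pass the test changed with single pigs. Leaving out a pig gave log2 fold changes between lrNK and blood of -0.10 to 0.23 for GIMAP1 (-0.10 without pig 4), of -0.28 to 0.40 for GIMAP5 and of -0.30 to 0.012 for GIMAP6, where -0.28 and 0.012 were without pig 3. Against CD8α high liver the ranges were -0.15 to 0.080 for GIMAP1, -0.27 to 0.33 for GIMAP5 and -0.19 to 0.085 for GIMAP6, where 0.080, -0.27 and 0.085 were without pig 3. Between the CD8α high populations they were -0.22 to 0.37 for GIMAP2 (-0.22 without pig 2) and -0.020 to 0.13 for GIMAP5 (-0.011 without pig 3, -0.020 without pig 4). Chosen after seeing the data, leaving out the lrNK library of pig 3 alone gave -0.28 for GIMAP5 and 0.034 for GIMAP6 against blood, and 0.071, -0.33 and 0.11 for GIMAP1, GIMAP5 and GIMAP6 against CD8α high liver. With the pig block as well, these were -0.27 and 0.020, and 0.098, -0.32 and 0.099, and 2 members were called against CD8α high liver, GIMAP8 being the second (log2 fold change 0.75, adjusted p = 0.0219 by edgeR). GIMAP2 had at most 57 counts in a library, and the part of these low counts in its wide interval was not tested.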
